A study of Mus musculus with 6 samples.

Results

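The genes described here mark microglia, the resident macrophages of the brain, and macrophages of other tissues, and they were chosen by name: Csf1r, Aif1, P2ry12, Tmem119, Trem2, Tyrobp, Siglech, Mrc1, Cd68 and Lyz2. Symbols of the array's annotation were matched ignoring case, and every probe of a matched gene was taken. Of the 10 genes, 7 were measured, each by 1 probe, among 17742 genes in all. P2ry12, Tyrobp and Lyz2 had no probe under these names or their synonyms and were not analysed here. The tissue was female BALB/c mouse brain, ovary or uterus by label. Each tissue had 1 array of untreated animals (mock) and 1 of animals that received Sheng-Hua-Tang (SHT), a decoction of herbs, orally at 200 mg/kg for 7 days. With 6 arrays in 6 groups of 1, differences between mock and SHT under 1 tissue label have no replicates, and so few arrays limit the precision. The sources used here do not give the animals' age, their number per sample or whether 1 animal gave several tissues.

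Microglia and most tissue macrophages depend on the receptor CSF1R, which binds CSF1 and IL-34. TREM2 senses lipids and cell debris and signals through the adaptor TYROBP, which also serves Siglec-H. P2RY12 (a receptor for ADP), TMEM119 and Siglec-H are used to tell mouse microglia from other macrophages, whereas the mannose receptor MRC1 marks tissue-resident macrophages, including those at the borders of the brain. The transcription factor PU.1, encoded by Spi1, is needed for both cell types, and its binding sites contain the letters GAGGAA.

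These letters were searched on both strands in the 250 bases before the start of each gene in the RefSeq promoter table of the mouse build GRCm38.p6. They were held by 7639 of 32851 windows, or 23.3%. Windows of 5 measured members were searched, and Mrc1, Cd68, Trem2 and Aif1 held a match while Siglech held none. Csf1r and Tmem119 were measured but not searched, so nothing is read for them. The members searched are therefore not compared with the share over all windows. Of the members without a probe, P2ry12 and Lyz2 had a window with no match. The windows of Mrc1, Cd68 and Trem2 are shown because Trem2 differs from Mrc1 and Cd68 in its pattern over the arrays although each holds the letters. Capitals mark GAGGAA or its reverse complement TTCCTC, in the gene's own direction, and a match is a description and not evidence of binding.
Mrc1, chr2:14229164-14229413, plus strand: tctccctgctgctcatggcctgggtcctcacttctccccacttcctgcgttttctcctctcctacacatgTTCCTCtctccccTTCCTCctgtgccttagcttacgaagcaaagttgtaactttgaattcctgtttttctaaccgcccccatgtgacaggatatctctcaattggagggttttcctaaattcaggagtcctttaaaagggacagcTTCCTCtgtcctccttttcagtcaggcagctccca
Cd68, chr11:69666171-69666420, minus strand: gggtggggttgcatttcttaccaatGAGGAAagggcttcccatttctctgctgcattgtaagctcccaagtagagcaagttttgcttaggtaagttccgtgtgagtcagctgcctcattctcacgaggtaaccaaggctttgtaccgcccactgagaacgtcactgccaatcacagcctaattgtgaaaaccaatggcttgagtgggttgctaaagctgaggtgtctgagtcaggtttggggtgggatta
Trem2, chr17:48346151-48346400, plus strand: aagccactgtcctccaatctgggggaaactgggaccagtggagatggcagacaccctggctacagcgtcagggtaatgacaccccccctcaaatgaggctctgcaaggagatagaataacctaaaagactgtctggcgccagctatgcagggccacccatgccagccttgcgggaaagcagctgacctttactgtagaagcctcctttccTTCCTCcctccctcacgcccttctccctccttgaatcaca
Mrc1 held 3 matches, which began 180, 167 and 35 bases before the start. Cd68 held 1, which began 225 bases before it, and Trem2 held 1, which began 40 bases before it.

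Values are linear intensities as deposited, and a probe's value was set against the same probe on other arrays and never against another probe. Median intensity lay between 179 and 224. The 95th percentile of 529 olfactory receptor genes, silent in most tissues, lay between 275 and 541 and is used below as the edge of the background spread. The tissue markers did not follow the labels on 4 of the 6 arrays. Snap25, a neuronal gene, read 58204 under the label mock brain, 60038 under SHT ovary and 210 under SHT brain. Of the 15 pairs of arrays, mock brain with SHT ovary was the closest (Pearson 0.996 over probes). Next were SHT brain with mock uterus (0.981), both high in the ovarian enzyme Hsd3b1 (40566 and 51780), and mock ovary with SHT uterus (0.972), both high in the epithelial keratin Krt5 (36716 and 29948). Arrays are therefore named by their labels, and a difference between mock and SHT cannot be told apart from a difference between tissues.

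Csf1r, the growth factor receptor shared by microglia and macrophages, was read above the background spread on all 6 arrays. Its intensity was 2142 on mock brain, 1069.5 on SHT brain, 2539 on mock ovary, 2448 on SHT ovary, 1529 on mock uterus and 3394 on SHT uterus. The lowest values were on SHT brain and mock uterus, and the highest was on SHT uterus. Aif1, which encodes the calcium-binding protein IBA1 widely used to stain microglia, read 1130.0 on mock brain, 594 on SHT brain, 1104 on mock ovary, 1377 on SHT ovary, 684 on mock uterus and 1424 on SHT uterus. It was low on the same 2 arrays as Csf1r. With each gene centred on its own mean over the 6 arrays, Csf1r and Aif1 were the closest of the 21 pairs of members, with a root mean square difference of 0.17 on the log2 scale. In whole tissue, fewer cells of a type and less RNA per cell cannot be told apart.

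Trem2, the lipid-sensing receptor, varied least of the 6 members read above the background spread (Mrc1 on 5 arrays, the others on all 6). It read 1377 on mock brain, 1717 on SHT brain, 2923 on mock ovary, 1735 on SHT ovary, 1543 on mock uterus and 1790.2 on SHT uterus. The array labelled mock ovary stood above the other 5, and the highest value was 2.12 times the lowest.

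Of the 2 measured genes of the microglia group, Tmem119 was above the background spread on all 6 arrays and Siglech on none. Tmem119, a membrane protein of microglia that was also described in bone-forming cells, read 1249.7 on mock brain, 2889.7 on SHT brain, 5029 on mock ovary, 1539 on SHT ovary, 1887 on mock uterus and 5721 on SHT uterus. Its 2 lowest values were on the arrays with high Snap25, and its highest were on those with high Krt5. Siglech, a lectin receptor of microglia and plasmacytoid dendritic cells, read 222 on mock brain, 16.3 on SHT brain, 25.3 on mock ovary, 258 on SHT ovary, 24.1 on mock uterus and 69.6 on SHT uterus. Since all 6 values were inside the background spread, no order is read from them, and no fold or direction is given for Siglech.

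Both measured genes of the peripheral macrophage group were lowest on the arrays with high Snap25. Mrc1, the mannose receptor, read 484 on mock brain, 1577 on SHT brain, 2753 on mock ovary, 498 on SHT ovary, 1541 on mock uterus and 4039 on SHT uterus. The mock brain value was inside the background spread and the other 5 were above it. Cd68, a lysosomal membrane protein of phagocytes that microglia also make, read 619.6 on mock brain, 3367 on SHT brain, 2242 on mock ovary, 697 on SHT ovary, 1625 on mock uterus and 3522 on SHT uterus. Its values on SHT brain and SHT uterus were close to each other and above those on the other arrays. The highest value of Mrc1 was 8.12 times that on SHT ovary, its lowest above the background spread. The highest over the lowest value was 5.68 for Cd68, 3.17 for Csf1r and 2.40 for Aif1.

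**Figure D1:**
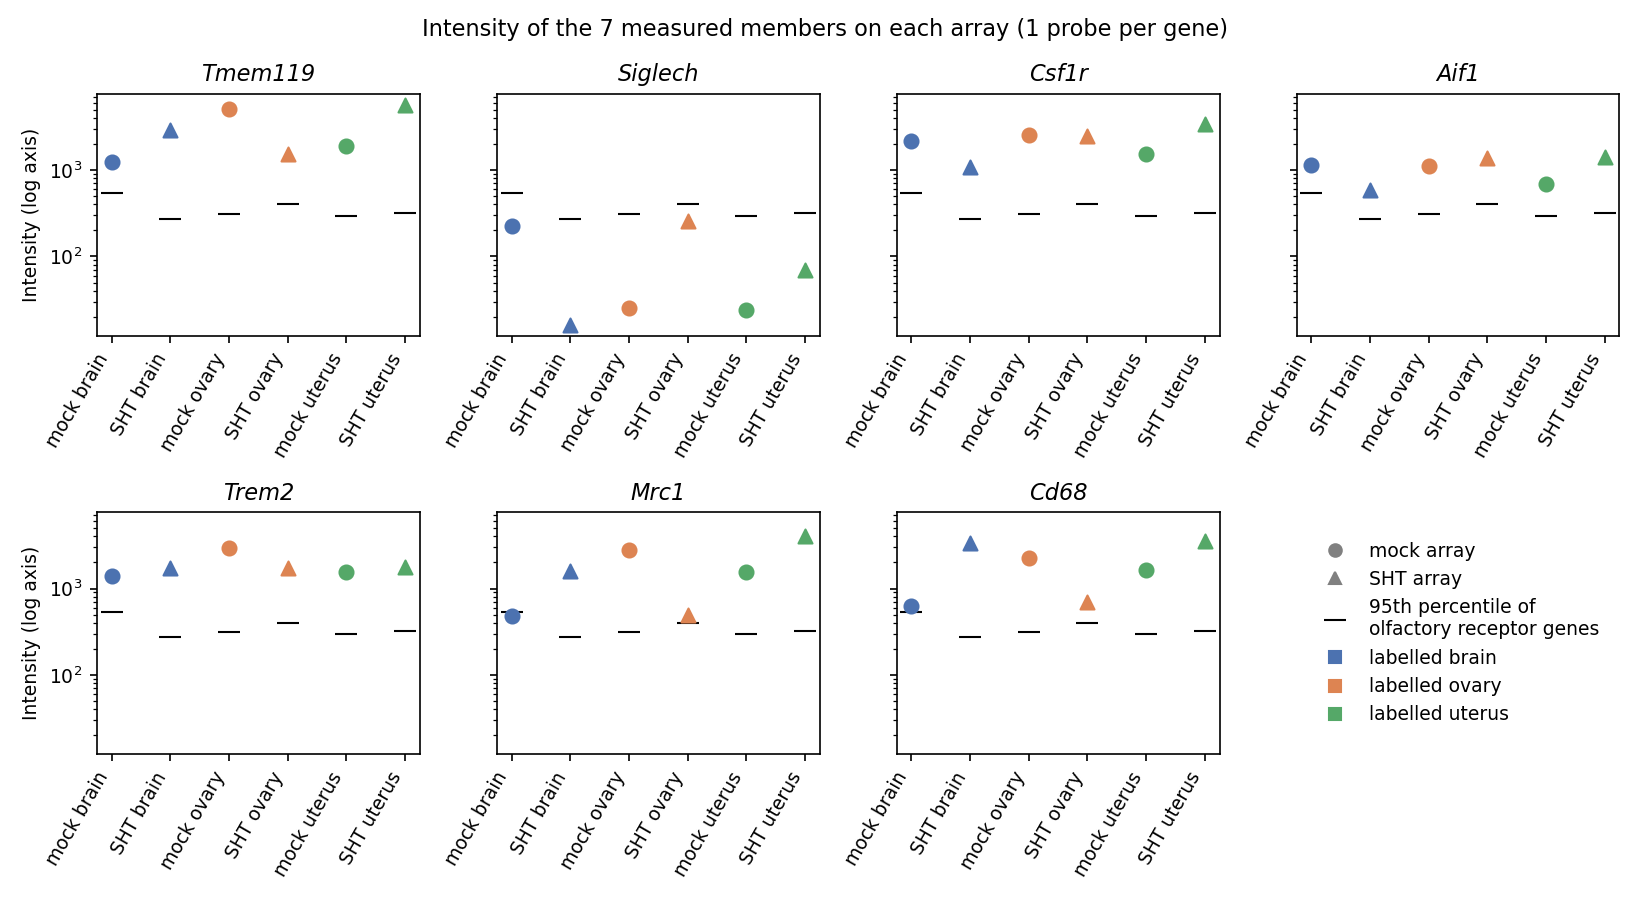
Intensity on a log axis of each measured member on each array, named by its label, with circles for mock and triangles for SHT, and a bar for the edge of the background spread on that array. Mrc1 and Cd68 are lowest on mock brain and SHT ovary, Siglech is below the bar on all 6 arrays, and Csf1r and Aif1 are lowest on SHT brain and mock uterus.

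By their values on mock brain and SHT ovary, the 6 members above the background spread fell into 2 sets, the second being the remainder. Tmem119, Mrc1 and Cd68 read lower on both mock brain and SHT ovary than on any of the other 4 arrays, as did 35.2% of the 10763 genes above the level floor (a mean level above the median over all probes). Csf1r, Aif1 and Trem2 were neither lower on both than on the other 4 nor higher on both, and 28.9% of those genes were higher on both. These 3 did not share 1 pattern. Trem2 had a root mean square difference of 0.54 from Aif1 and 0.55 from Csf1r, beside 0.17 between Csf1r and Aif1. Centred on each gene's mean, the median of the peripheral macrophage members was -1.45 on mock brain, where Mrc1 was inside the background spread, and -1.34 on SHT ovary on the log2 scale, and ran from 0.09 on mock uterus to 1.34 on SHT uterus on the other arrays. The median of the 3 shared members was 0.06 on mock brain and 0.26 on SHT ovary, with its lowest values on SHT brain (-0.75) and mock uterus (-0.42). The highest value was on SHT uterus for 5 of these 6 members, the exception being Trem2. How many of all genes were highest on that array was not counted, so this is not read as particular to the members.

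Other genes of both cell types were taken from lists of known markers. All 9 tissue macrophage genes above the level floor, of 17 listed and 15 measured, read lower on mock brain and SHT ovary than on the other 4 arrays, beside 35.2% of all genes. Among them Cbr2, a carbonyl reductase found in resident macrophages and airway cells, read 219 and 239 on those arrays and between 2967 and 41002 on the others. Ms4a7, a marker of macrophages at the borders of the brain, read 81.9 and 106 there and between 1018 and 4618 elsewhere. Adgre1, which encodes the macrophage antigen F4/80, read 138 and 155 there and between 386 and 2097 elsewhere. Pf4, a chemokine of platelets and resident macrophages, read 225 and 349.6 there and at least 1192 elsewhere. These low values were inside the background spread.

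Of 11 other microglia-enriched genes listed, 9 were measured and 6 were above the level floor. On mock brain and SHT ovary 2 of the 6 were higher than on every other array, beside 28.9% of all genes, and 2 were lower, beside 35.2%, so neither share stood far from that over all genes. Cx3cr1, the fractalkine receptor, was one of the higher, at 1510.5 and 1899 against 384 to 1386. Gpr34, a lysophospholipid receptor, was the other, with 528 and 704 against 94.5 to 391, although its mock brain value was inside the background spread. Olfml3, a secreted matrix protein, was one of the lower, with 313 and 307, inside the background spread, against 1279 to 5439. Selplg, the selectin ligand of leukocytes, read 2653 on mock brain and 3220.0 on SHT ovary, less than its 4785 on SHT uterus but more than its 604 to 1397 on the other 3 arrays. Golm1, a Golgi protein, was highest on SHT brain at 7669, and between 894 and 2901 elsewhere.

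Of 19 pan-myeloid genes above the level floor, 11 were lower on mock brain and SHT ovary than elsewhere, beside 35.2% of all genes, and 2 were higher, beside 28.9%. Cd14, the co-receptor for bacterial endotoxin, read 334 and 381 there, inside the background spread, and between 3071 and 35712 elsewhere. Complement C1qa, made by both cell types, differed little, from 10022 on mock brain to 21783 on SHT uterus. The 2 that were higher on both were Spi1 and Mertk, a receptor for dying cells. Mertk read 2107 and 2039 on those arrays and 506 to 823 on the others. The probe named Spi1 read 5757 and 7217 there and 439 to 1024 elsewhere, and whether it measures that gene alone is not known here.

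**Figure D2:**
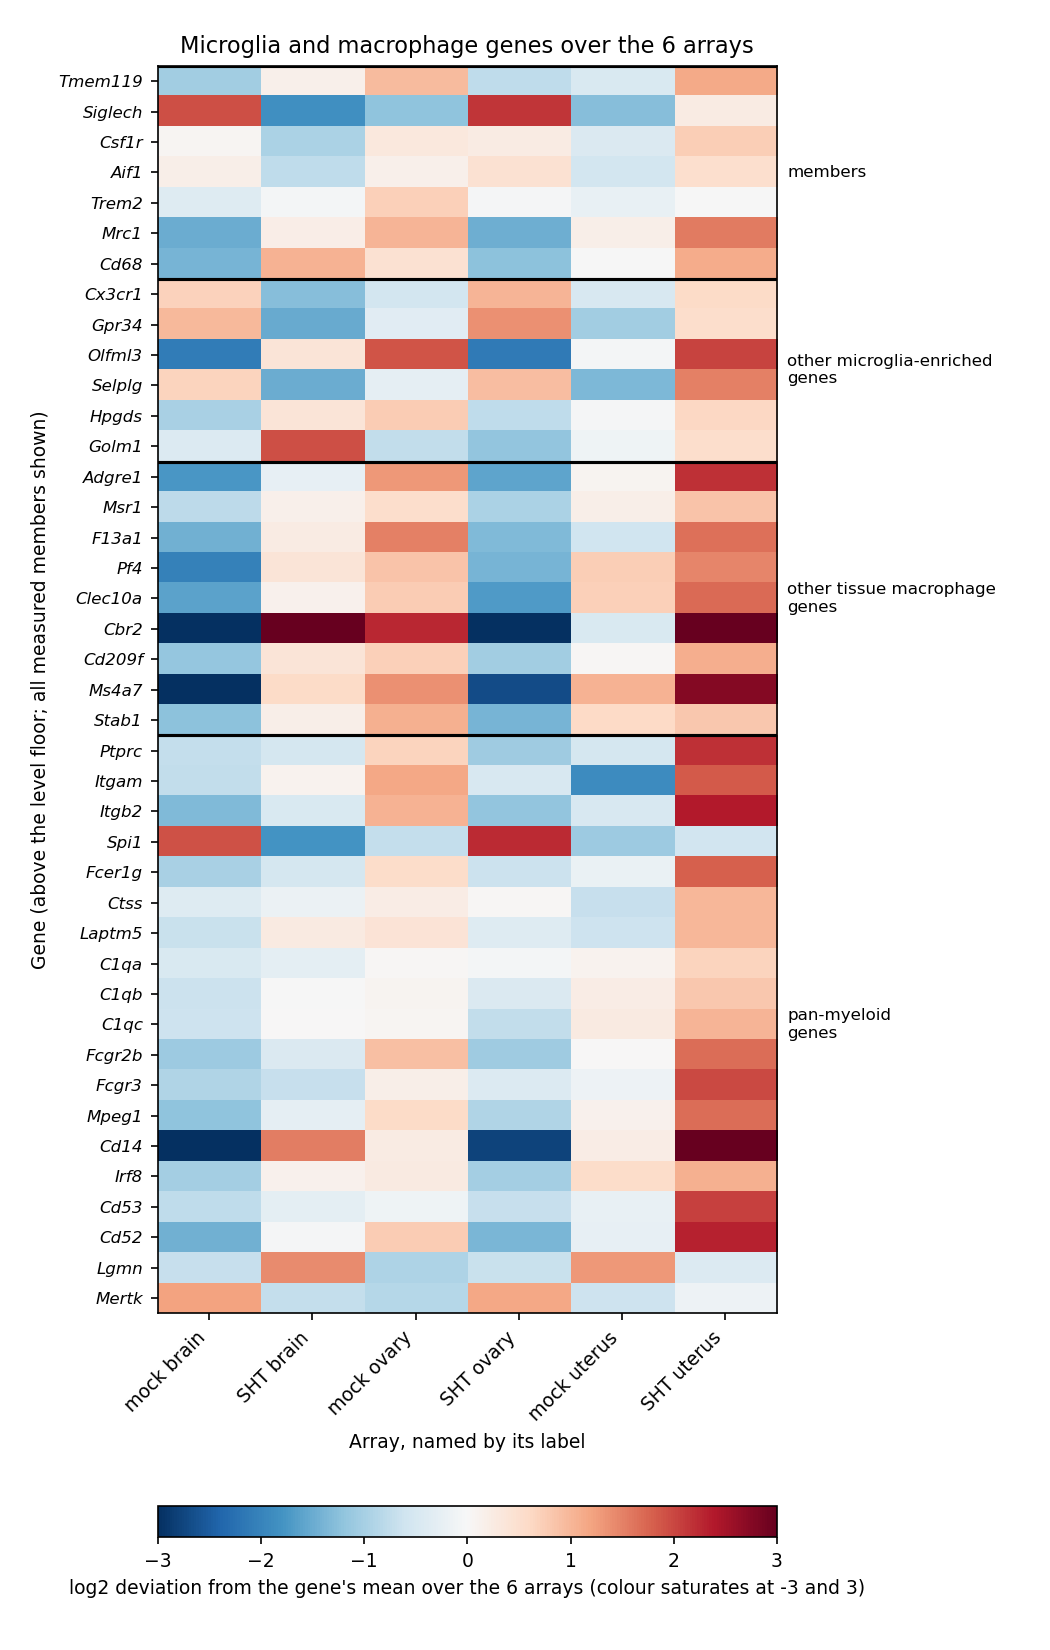
Log2 deviation of each gene from its own mean over the 6 arrays, for the measured members and for the listed genes above the level floor. Red is above the mean and blue below it. The 9 tissue macrophage genes are blue on mock brain and SHT ovary, where Cx3cr1, Gpr34, Spi1 and Mertk are red. Siglech is drawn too, but its 6 values were inside the background spread.

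The study asked what SHT changes in each tissue, so the SHT array was set against the mock array of the same tissue label. A gene was counted when the mean of the pair was above the level floor and the difference was at least 2-fold as deposited, which 6 of the 7 members could meet (Siglech was under the floor in each pair). Folds are given relative to the median gene, which differed by -0.12 on the log2 scale in the pair labelled brain, 0.13 in ovary and -0.02 in uterus. In the pair labelled brain, 3 members were counted as higher on SHT, beside 22.0% of all genes, and 1 as lower, beside 24.0%. Cd68 was 5.90-fold higher, Tmem119 2.51-fold, and Mrc1 at least 3.16-fold, a lower bound set by the background spread on the mock array. Csf1r was counted as lower on the deposited scale but was 1.85-fold lower relative to the median gene. Aif1 was 1.75-fold lower and Trem2 1.35-fold higher, neither past 2-fold. On the same 2 arrays the 6 measured brain markers summed to 145463 on mock and 686 on SHT, and the 8 ovary markers to 1384.6 and 93106.

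The pair labelled ovary ran the other way for the macrophage genes. There 3 members were at least 2-fold lower on SHT, beside 21.2% of all genes, and 0 were higher, beside 25.4%. Mrc1 was 6.04-fold lower, Tmem119 3.57-fold and Cd68 3.52-fold. Trem2 was 1.84-fold lower, Csf1r 1.13-fold lower and Aif1 1.14-fold higher. Brain markers summed to 4740.1 on mock and 146580 on SHT, and stratified epithelium markers to 304019 and 7091.

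In the pair labelled uterus, 5 of 6 members past the level floor read at least 2-fold higher on SHT, beside 12.9% of all genes, and 0 were lower, beside 8.49%. Tmem119 was 3.07-fold higher, Mrc1 2.65-fold, Csf1r 2.25-fold, Cd68 2.19-fold and Aif1 2.10-fold. Trem2 differed by 1.17-fold. Of 19 pan-myeloid genes above the floor, 12 were higher and 1 was lower. The 19 had a median difference of 1.67 on the log2 scale, beside 0.05 over all genes above the floor. Tissue macrophage genes had 5 of 11 higher and 0 lower, with a median of 1.004, and other microglia-enriched genes 4 of 6 higher and 0 lower, with a median of 1.33. Neutrophil markers moved with them: all 7 above the floor were higher, and the 11 measured of 12 listed summed to 25125 on mock and 135216 on SHT, of which Ltf, also an oestrogen-responsive gene of uterine epithelium, was 22691 and 62708. Retnlg, a neutrophil gene, read 339 and 26031, and no listed neutrophil marker was at 0 on either array. Of the 5 measured monocyte markers, which summed to 9493 and 15676, Ccr2 read 195 and 986, whereas Nr4a1, an early-response gene of many cells, read 4471 and 1899. The 7 T cell markers summed to 3835 and 2007, a difference set by Cd3e (3259 and 966.4). Cd3d read 135 on mock, inside the background spread, and 419 on SHT, above it. The rest of the 7 were inside the background spread on both arrays, so no direction is read from them. The ovary markers summed to 136242 and 4549 on these arrays, and the stratified epithelium markers to 3376 and 192429. The part of neutrophils, of other leukocytes and of the tissue itself in the members' differences was not tested.

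**Figure D3:**
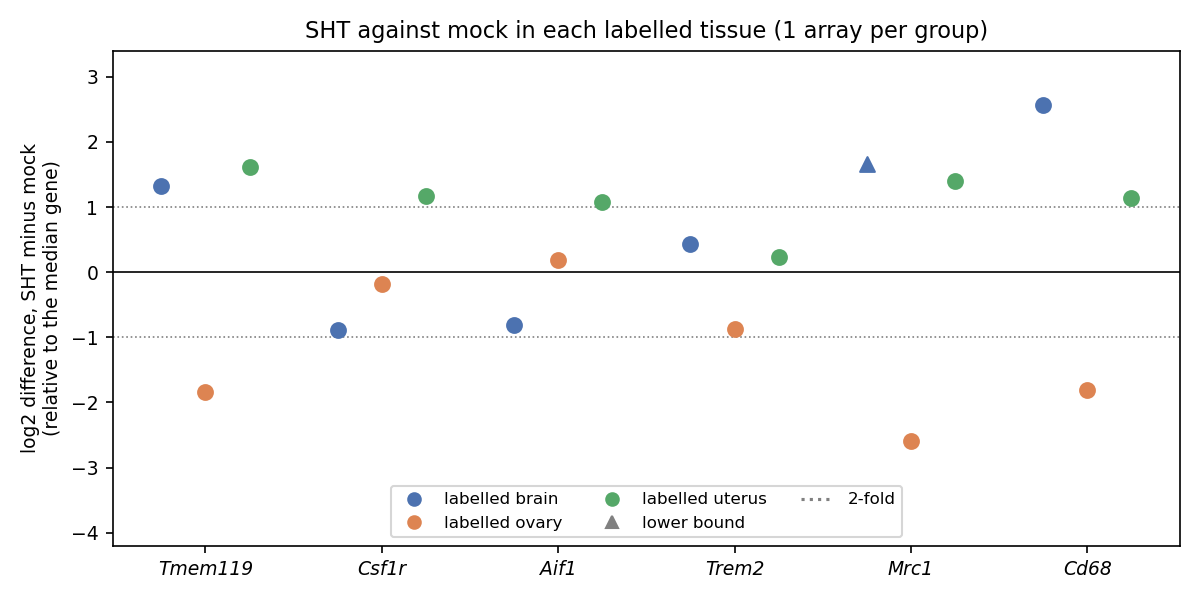
Log2 difference, SHT minus mock, of the 6 members above the background spread in each labelled tissue, relative to the median gene, with 1 array per group. The triangle is a lower bound, and dotted lines mark 2-fold. Tmem119, Mrc1 and Cd68 lie above 1 in the pairs labelled brain and uterus and below -1 in that labelled ovary.

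Set against each other by group, the 2 peripheral macrophage members had a median log2 difference of 2.19 in the pair labelled brain (2.11 with Mrc1 at its lower bound), -2.20 in ovary and 1.27 in uterus. Tmem119, the microglia member that could be read, had 1.33, -1.84 and 1.62, with the same sign in all 3. The 3 shared members had -0.81, -0.18 and 1.07.

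The lists around the signalling of these receptors were described in the same way. Of 9 listed ligand and growth factor genes, 8 were above the level floor over the 6 arrays. On both mock brain and SHT ovary 5 of these 8 were lower than elsewhere (Tgfb1, Tgfbr1, Tgfbr2, Csf2rb and Runx1), beside 35.2% of all genes, and 1 was higher, beside 28.9%. The 1 higher was Il34, a CSF1R ligand that neurons make, at 1129.9 and 1026 against 199 to 471 elsewhere. Csf1, the other ligand, read between 764 and 2299, highest on SHT uterus. Tgfbr2, a receptor for the growth factor that maintains microglial identity, read 2026 and 2056 on mock brain and SHT ovary and between 11663 and 33791 elsewhere. Csf2rb, a chain of the receptors for GM-CSF and related cytokines, read 4665 on SHT uterus and at most 736 elsewhere. In the TYROBP list 8 of 11 genes were measured and 4 were above the level floor. On mock brain and SHT ovary 3 of the 4 (Hcst, Plcg2 and Inpp5d) were lower than elsewhere, beside 35.2% of all genes. Hcst was above the background spread on SHT uterus alone. The 1 higher, beside 28.9%, was Vav1, whose values were inside the background spread on all 6 arrays. Plcg2, a phospholipase downstream of TREM2, read 366 and 369 on mock brain and SHT ovary, inside the background spread, and between 643 and 2308 elsewhere.

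Of the 12 measured genes listed for activated microglia in disease and ageing, 10 were above the level floor. On mock brain and SHT ovary 6 of the 10 were lower than elsewhere, beside 35.2% of all genes, and 1 was higher, beside 28.9%. Gpnmb, a glycoprotein of lipid-loaded macrophages, read 5930.2 on SHT uterus and at most 778 elsewhere, and Clec7a, the receptor for fungal glucans, 3968 and at most 522. Spp1, which encodes osteopontin, was highest on SHT brain and mock uterus, at 9107 and 10490.4, and read at most 4229 elsewhere. Itgax, an integrin chain of dendritic cells, was the 1 that was higher on mock brain and SHT ovary, at 2756 and 2789, against 277 to 655.

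In each of the 15 pairs of arrays, which share arrays with one another, the members were also read against all genes. Between mock brain and SHT ovary 0 of 7 members, Siglech included, were at least 2-fold apart, beside 0.189% of genes. The 5 members above the background spread on both arrays were higher on SHT ovary. Relative to the median gene, their log2 differences ran from 0.26 (Cd68) to 0.42 (Trem2). That median was over all genes, those under the level floor included. The share of genes as high on SHT ovary was not counted, so this is not read as particular to the members. Between SHT brain and mock uterus Cd68 alone of 6 was past 2-fold, beside 7.68% of genes, with a log2 difference of -1.30 on mock uterus. Between mock ovary and SHT uterus 0 of 6 were past it, beside 18.1%. Trem2 differed there by -1.04 relative to the median gene, on SHT uterus, so that 1 of 6 was past 2-fold on that scale, beside 11.2% of genes. Between mock uterus and SHT uterus 5 of 6 were past it, beside 21.4%, and between SHT brain and SHT uterus Csf1r, Aif1 and Mrc1 were, 3 of 6 beside 20.4%. Between SHT brain and mock ovary Csf1r was, 1 of 6 beside 21.8%, and between mock ovary and mock uterus Tmem119 was, 1 of 6 beside 32.2%. In this last pair the median gene lay 0.31 higher on mock uterus (log2). Relative to it, 5 of 6 members were past 2-fold, beside 26.9% of genes, with log2 differences on mock uterus of -1.72 for Tmem119, -1.23 for Trem2, -1.15 for Mrc1, -1.04 for Csf1r and -1.0002 for Aif1, just past the threshold. Relative to the median gene the count was also 2 in place of 1 between SHT brain and mock ovary, beside 21.2% of genes, and 3 in place of 4 between mock brain and SHT brain, beside 46.5%, and it was the same in the other 11 pairs. The 8 pairs that set mock brain or SHT ovary against another array had between 2 and 4 of 6 members past 2-fold. For mock brain these were 4 against SHT brain (beside 45.9% of genes), 4 against mock ovary (47.0%), 2 against mock uterus (45.9%) and 3 against SHT uterus (46.9%). For SHT ovary they were 4 against SHT brain (45.3%), 3 against mock ovary (46.7%), 3 against mock uterus (45.7%) and 3 against SHT uterus (46.9%). Mrc1 and Cd68 were among them in all 8, and Trem2 in 1, against mock ovary.

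**Figure D4:**
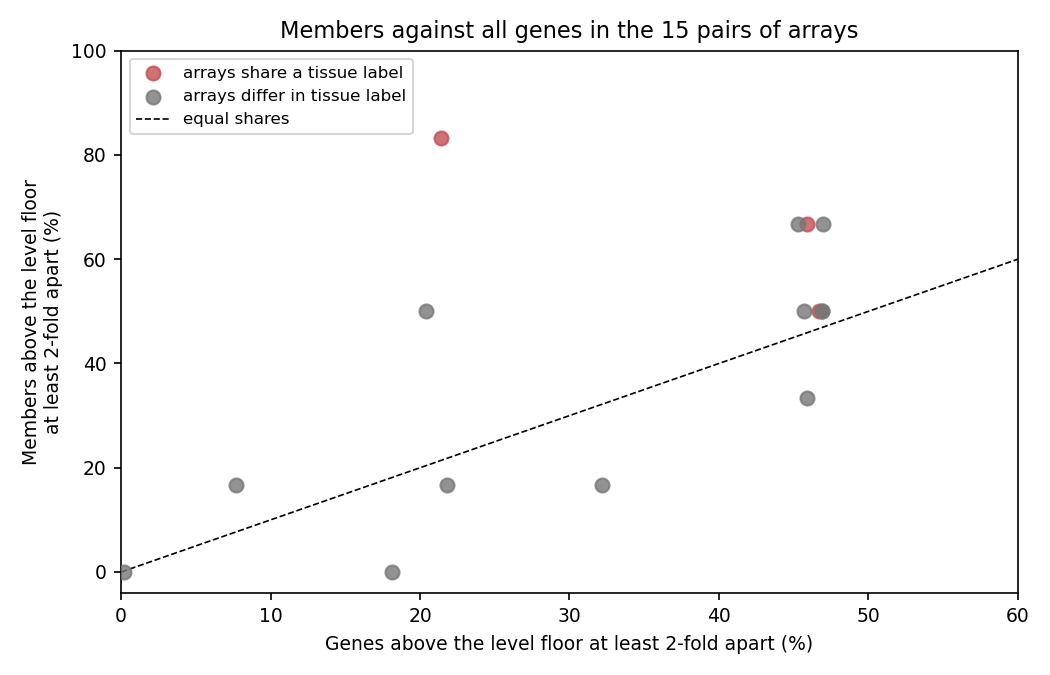
Share of the members above the level floor that were at least 2-fold apart, against the same share of all genes, for each of the 15 pairs of arrays, with pairs that share a tissue label in red. The pair labelled uterus, with 5 of 6 members beside 21.4% of genes, lies farthest above the line of equal shares.

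The genes most like each of the other 6 members were found among 10475 named genes above the level floor, by the root mean square difference between log2 values centred over the 6 arrays. Nearest to Csf1r were Cdk13, Smap1 and Xist, at 0.13 each. Pnpla5 (0.11), Ccdc25 (0.12) and Per2 (0.12) were nearest to Aif1. Osbpl2 (0.09), Zfand2b (0.10) and Tank (0.17) were nearest to Trem2. For Mrc1 these were Adgra2 (0.11), Meis1 (0.12) and Plekhg3 (0.14), and for Cd68 they were Bmp6 (0.10), Rps6ka1 (0.16) and Slc52a3 (0.17). Il4ra (0.13), Maff (0.16) and Ptgfrn (0.17) were nearest to Tmem119. None is given for Siglech, whose values were inside the background spread. With 6 arrays that form 3 close pairs, many genes share a pattern, and none of these was a listed microglia or macrophage gene.

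The average SHT effect over the 3 labelled tissues was the replicated contrast of the design, with a spread between tissues and not between mice. Its blocks are the tissue labels, which the tissue markers did not follow on 4 of the 6 arrays, so a block does not pair arrays of like tissue. With limma, 0 of 10763 genes and 0 of 6 members passed an adjusted p of 0.05, and 4 genes and 0 members had an unadjusted p under 0.05. Cd68 had the largest average among the members, 0.62 ± 0.96 (SE) on the log2 scale with an adjusted p of 0.99996 by limma, and was higher on SHT under 2 of 3 tissue labels. Trem2 had -0.07 ± 0.47 (SE).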

How the data were processed

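RNA of 6 samples was labelled with Cy5, per the labels' protocols, and read on 1-colour arrays. The deposited table holds the authors' linear intensity for 26423 probes. Limma is named in the submitters' processing notes, with no version or role, and their background correction, scaling and detection calls are not stated there. Of the probes, 20377 carried 1 symbol and 6046 none. Symbols were updated through RefSeq (GRCm38.p6: 18213 by symbol, 2126 by synonym, 38 as given). A gene took its probe with the highest mean, which left 17742 genes.

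Values under the 5th percentile of an array's positive values were set to it, and log2 was taken without scaling. Limma 3.58.1 (R 4.3.3) tested the average effect (tissue block, eBayes trend, two-sided, Benjamini-Hochberg), after a check on simulated data. The check used matched blocks and the noise of the closest pair of arrays. It therefore does not show how well the test finds changes on these arrays, whose blocks do not pair like tissues. Tables were made with Python 3.11.15 and pandas 2.3.3. A fold is "at least" where the dimmer array was inside the background spread, whose edge took its place.

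Members, lists and rules were chosen with earlier results of these data known. All members were named, with up to 4 genes per list by widest range, and genes of like pattern. The rule for the latter named P2ry12 and Lyz2, which had no probe, so the 3 nearest genes to each measured member but Siglech were taken after the values were seen. Cx3cr1, C1qa, Mertk, Csf1, Il34, Tgfb1, Tgfbr1, Cd3d, Lgmn, Snap25, Hsd3b1 and Krt5 were named after their values were seen. So were Csf3r, Mpo, Cxcr2, Ngp, Camp and Elane. Alternatives were other scalings, probe means, another low floor, other level floors, a 3-fold threshold and other limma settings.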

Additional observations from a re-analysis of the deposited data

Results flagged for a closer look

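Of the measured members, 4 were at least 2-fold higher on SHT under 1 tissue label and at least 2-fold lower under another. The share of all genes that did so was not computed, so this is not read as particular to these members. The differences between tissues were not tested, since each label held 1 array per treatment, and tissue and treatment cannot be told apart on these arrays. Tmem119 had log2 differences, SHT minus mock and relative to the median gene, of 1.33 in the pair labelled brain, -1.84 in ovary and 1.62 in uterus. Mrc1 had at least 1.66, a lower bound since mock brain was inside the background spread, then -2.59 and 1.41 in the same order, and Cd68 had 2.56, -1.81 and 1.13. Csf1r had -0.88 in the pair labelled brain, which was 2-fold only on the deposited scale, and 1.17 in uterus.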

How the results depend on the processing

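The 12 recomputed medians of the peripheral macrophage members stayed within 1.5 times of the reported ones, on the fold scale, under quantile normalization, median centring, probe means and the olfactory receptor median as the low floor. The count of members lower on SHT in the pair labelled brain, 1 as reported (Csf1r), was 0 after quantile normalization, median centring or a 3-fold threshold. It was 2 with the level floor at the 25th percentile or with none, which let Siglech in. In the pair labelled ovary the count of higher members was 1 in place of 0 with either of those floors. The count of higher members in the pair labelled uterus, 5 as reported, was 4 after quantile normalization or median centring. It was 6 with no level floor, which let Siglech in, and 1 with a 3-fold threshold. That threshold left 2 of the 3 higher members in the pair labelled brain. The median over both microglia members was -1.16 in the pair labelled brain and 0.69 in ovary. It is not used above, since Siglech was inside the background spread on all 6 arrays. It was -0.54 in brain with the low floor at the olfactory receptor median, and without Siglech, an alternative chosen after seeing the data, it was 1.33 in brain and -1.84 in ovary. The counts of members with mock brain and SHT ovary both above or both below the other arrays were unchanged under the 3 alternatives run. The 1 member counted as above was Siglech, from values inside the background spread. The limma count was 0 under all 8 alternatives, with 3 to 461 genes at an unadjusted p under 0.05. Without the arrays labelled ovary the average of Cd68 was 1.78 (adjusted p 0.99974 by limma), and without those labelled brain it was -0.29. The tissue label was the block in limma, and the count was also 0 without it. The labels give no replicate numbers, so no other pairing was tried. Low signal limits Siglech on every array and Mrc1 on mock brain.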

Other observations

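S100a8, a calcium-binding protein of neutrophils, was the 1 of 6 neutrophil markers above the level floor that was higher on both mock brain and SHT ovary than elsewhere, beside 28.9% of all genes, while 3 were lower, beside 35.2%. It read 1924 on mock brain and 2284 on SHT ovary but 522 on SHT uterus, where its partner S100a9 read 37218, against 215 and 789 on those 2 arrays. Of 5 monocyte markers 4 were lower on both, among them Plac8, a gene also of several epithelia, which read 7.67 and 11.3 there, inside the background spread, and between 1731 and 4932 on the other 4 arrays. Nr4a1 was higher on both, at 11849 and 9089 against at most 4471. Bst2, a marker of plasmacytoid dendritic cells that interferon also raises, read 24026 on SHT brain and 31093 on mock uterus and at most 8377 elsewhere. Lgmn, a lysosomal protease abundant in macrophages, was highest on the same 2 arrays, at 33009 and 30416.5, and read at most 9292 elsewhere. Whether each of these probes measures its named gene is not known here.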
